A study of Mus musculus with 4 samples.

Results

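Interferon-stimulated genes and the interferon regulatory factors that control them were followed through 4 libraries of sorted mouse islet cells. The genes were chosen by symbol, not by how they differed, but with earlier results of these data known. Of the 39170 rows of the deposited gene table, 75 matched the names of these families. Among the 75, 68 reached 1 FPKM in at least 1 library. FPKM counts fragments relative to transcript length and library size, a level per length, so levels can be set side by side between genes. The 7 matched rows below 1 FPKM in every library were Oas1d, Oas1e, Oas1f, Oas1h, Ifi44l, Gbp10 and Ifitm7. The highest value among these was 0.889 FPKM, in Ifitm7, and the lowest maximum among the genes kept was 1.29 FPKM, in Ifitm6. Of the kept rows 4, Irf2bp1, Irf2bp2, Irf2bpl and Isg20l2, share only the name with the families, and a second row for Gbp11 had too few data for a call, which left 67 rows for every comparison.

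Donor animals were MIP-GFP C57BL/6 males, 6 to 8 weeks old, in which green fluorescent protein is driven by the mouse insulin 1 promoter. Mice received either vehicle or 200 mg/kg of streptozotocin (STZ), a DNA-alkylating toxin that beta cells take up through Glut2, and the STZ mice were diabetic 4 days later. Insulin-positive cells of each treatment, 3 mice per group, were sorted on Glut2 into a high and a low gate, which gave a Glut2H and a Glut2L library for each treatment. Whether RNA of the 3 mice was pooled is not stated. Each group holds 1 library, so no spread between replicates exists, none of the differences carries a test, and each comparison is a description of the libraries sequenced.

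Before the results, the labels were set against defining markers. Slc2a2, which encodes Glut2, stood at 8.74, 41.0, 10.8 and 33.7 FPKM. Every series of 4 values follows that order: the control pair first and the STZ pair second, with Glut2H before Glut2L in each. The transcript thus lay higher in the Glut2L-labelled libraries, against the gate. Whether the labels were exchanged, or transcript and surface protein differ, was not tested, and each direction between gates is one between libraries so labelled. All 16 beta cell markers were present in every library, with Ins2 at 57345, 294540.0, 52596 and 175841. The Glut2H-labelled libraries also held markers of other cells, among them the leukocyte gene Ptprc at 26.7, 0.457, 32.8 and 1.10. Summed FPKM over 16 macrophage and myeloid markers came to 1791, 82.8, 1842 and 94.4, over 11 endothelial markers to 294, 39.5, 254 and 19.4, and over 12 stromal markers to 946, 63.9, 806 and 24.6. A short predicted gene, Gm20594, took 61.0%, 3.86%, 68.5% and 4.15% of all FPKM, which matters for any rescaling to equal sums.

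Interferons are secreted proteins that warn cells of infection or of misplaced nucleic acid. Type I and type III interferons act through receptor-bound JAK kinases on STAT proteins, of which STAT2 joins IRF9 in the complex ISGF3, whereas interferon gamma acts mainly through STAT dimers. ISGF3 binds the interferon-stimulated response element and STAT dimers bind the gamma-activated site, and their targets include RNA sensors, antiviral effectors, GTPases that attack intracellular microbes and genes of antigen presentation. In islets, interferon signalling is best known from the early stages of autoimmune diabetes.

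The promoters of these genes were searched for the response element. RefSeq promoter windows (GRCm38.p6, 250 bases before to 50 after each start) were matched for 49 of the 67 distinct symbols, and the core looked for was GAAANNGAAA on both strands (reverse complement TTTCNNTTTC). The core was present in 24 of 49 genes, or 49.0%, against 1079 of 27025 genes of the whole table, or 3.99%. The letters TTCNNNGAA, those of the gamma-activated site, which read alike on both strands, were present in 15 of 49 genes (30.6%) and in 2582 of 27025 (9.55%). Overlapping matches were counted separately. Among the 35 cores, 26 began within the 150 bases before the start. A match describes letters in a window and is not evidence of binding.

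The 5 sequences below are the 250 bases before the RefSeq start of the most abundant genes with a core there: the first 3 belong to genes at least 2-fold lower in the Glut2L-labelled library in both mouse groups, and the last 2 to genes without that pattern. They are written along the gene's strand, 5′ to 3′, with the cores in capitals. Rsad2 lies at chr12:26456453-26456702 on the minus strand, Isg15 at chr4:156200819-156201068 on the minus strand, Ifit3 at chr19:34583279-34583528 on the plus strand, Stat2 at chr10:128270248-128270497 on the plus strand and Oas1g at chr5:120887614-120887863 on the minus strand.
Rsad2: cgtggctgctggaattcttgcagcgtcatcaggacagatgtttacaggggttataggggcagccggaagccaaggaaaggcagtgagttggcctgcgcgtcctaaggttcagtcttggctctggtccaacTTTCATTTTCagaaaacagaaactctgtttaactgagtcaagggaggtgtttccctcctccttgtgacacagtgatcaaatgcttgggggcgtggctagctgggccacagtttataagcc
Isg15: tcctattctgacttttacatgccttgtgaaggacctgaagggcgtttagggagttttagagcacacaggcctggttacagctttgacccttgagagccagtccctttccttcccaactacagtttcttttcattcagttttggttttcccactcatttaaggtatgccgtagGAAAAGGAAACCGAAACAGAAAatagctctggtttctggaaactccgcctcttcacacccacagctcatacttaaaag
Ifit3: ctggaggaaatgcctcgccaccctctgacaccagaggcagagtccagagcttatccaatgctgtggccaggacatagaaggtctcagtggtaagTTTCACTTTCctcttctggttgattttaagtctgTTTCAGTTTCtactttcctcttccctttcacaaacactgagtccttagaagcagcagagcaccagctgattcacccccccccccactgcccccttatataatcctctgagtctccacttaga
Stat2: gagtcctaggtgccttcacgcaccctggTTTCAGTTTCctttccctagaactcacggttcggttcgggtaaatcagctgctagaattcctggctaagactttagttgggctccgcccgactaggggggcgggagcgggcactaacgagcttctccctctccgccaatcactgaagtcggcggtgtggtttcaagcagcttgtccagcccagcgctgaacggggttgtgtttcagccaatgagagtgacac
Oas1g: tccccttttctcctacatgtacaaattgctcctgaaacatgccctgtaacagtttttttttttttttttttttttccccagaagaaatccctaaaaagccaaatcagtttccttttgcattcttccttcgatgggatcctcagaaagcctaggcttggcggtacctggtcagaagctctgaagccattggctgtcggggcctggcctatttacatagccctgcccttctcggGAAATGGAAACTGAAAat
Isg15 holds 3 overlapping cores that begin at positions -78, -72 and -66 from its start. Ifit3 holds 2 separate cores, at -156 and -122, and Oas1g 2 overlapping ones at -18 and -12.

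**Figure D1:**
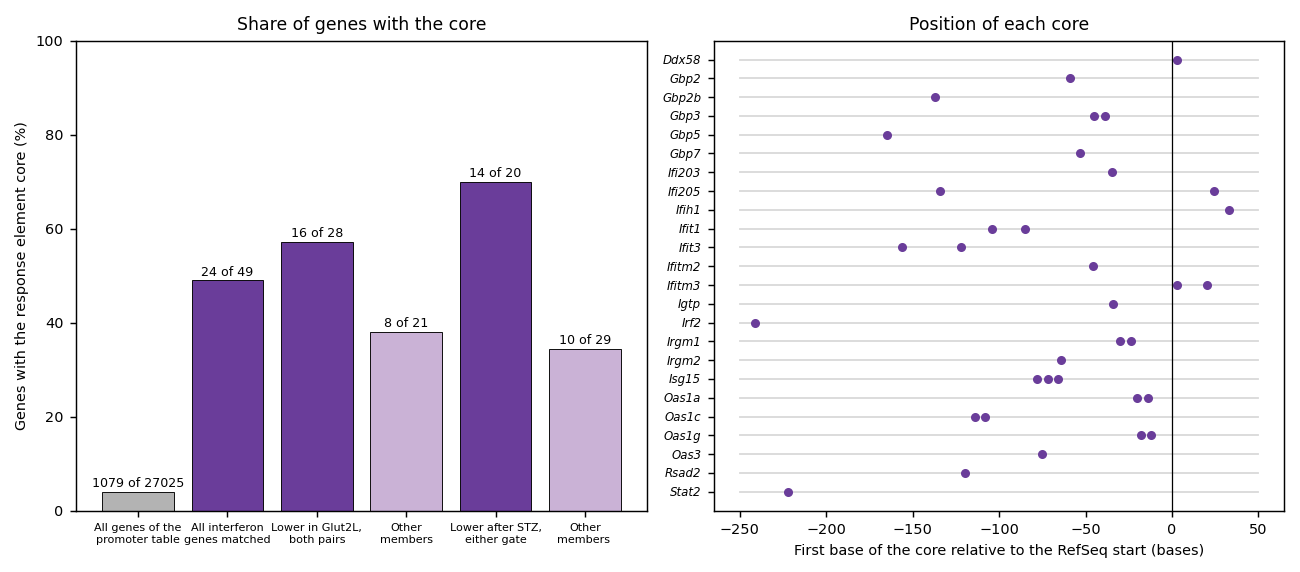
Left, bars give the percentage of genes whose RefSeq window holds the response element core, for all genes, for the interferon genes and for subsets of them, with counts above each bar. Right, each point is the first base of a core relative to the RefSeq start in bases, 1 row per gene with a core. The interferon genes stand at 49.0% against 3.99% of all genes.

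Interferon genes were most abundant in the Glut2H-labelled control library. Summed over the 68 rows, their FPKM came to 4128, 1252, 2788 and 789, and their median level was 23.9, 7.95, 14.95 and 5.46. For 45 of the 68 rows the highest of the 4 values was in Glut2H control, and for 44 the lowest was in Glut2L STZ. Ifi27l2a, a mitochondrial protein gene induced by interferon, was the most abundant member in both Glut2H libraries (ENSMUSG00000079017, GRCm38 chromosome 12, 103442167 to 103443680), and made up 22.9% and 24.8% of the summed FPKM there. In both Glut2L-labelled libraries the most abundant was Isg20, an exonuclease gene (ENSMUSG00000039236, chromosome 7, 78913424 to 78920396).

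**Figure D2:**
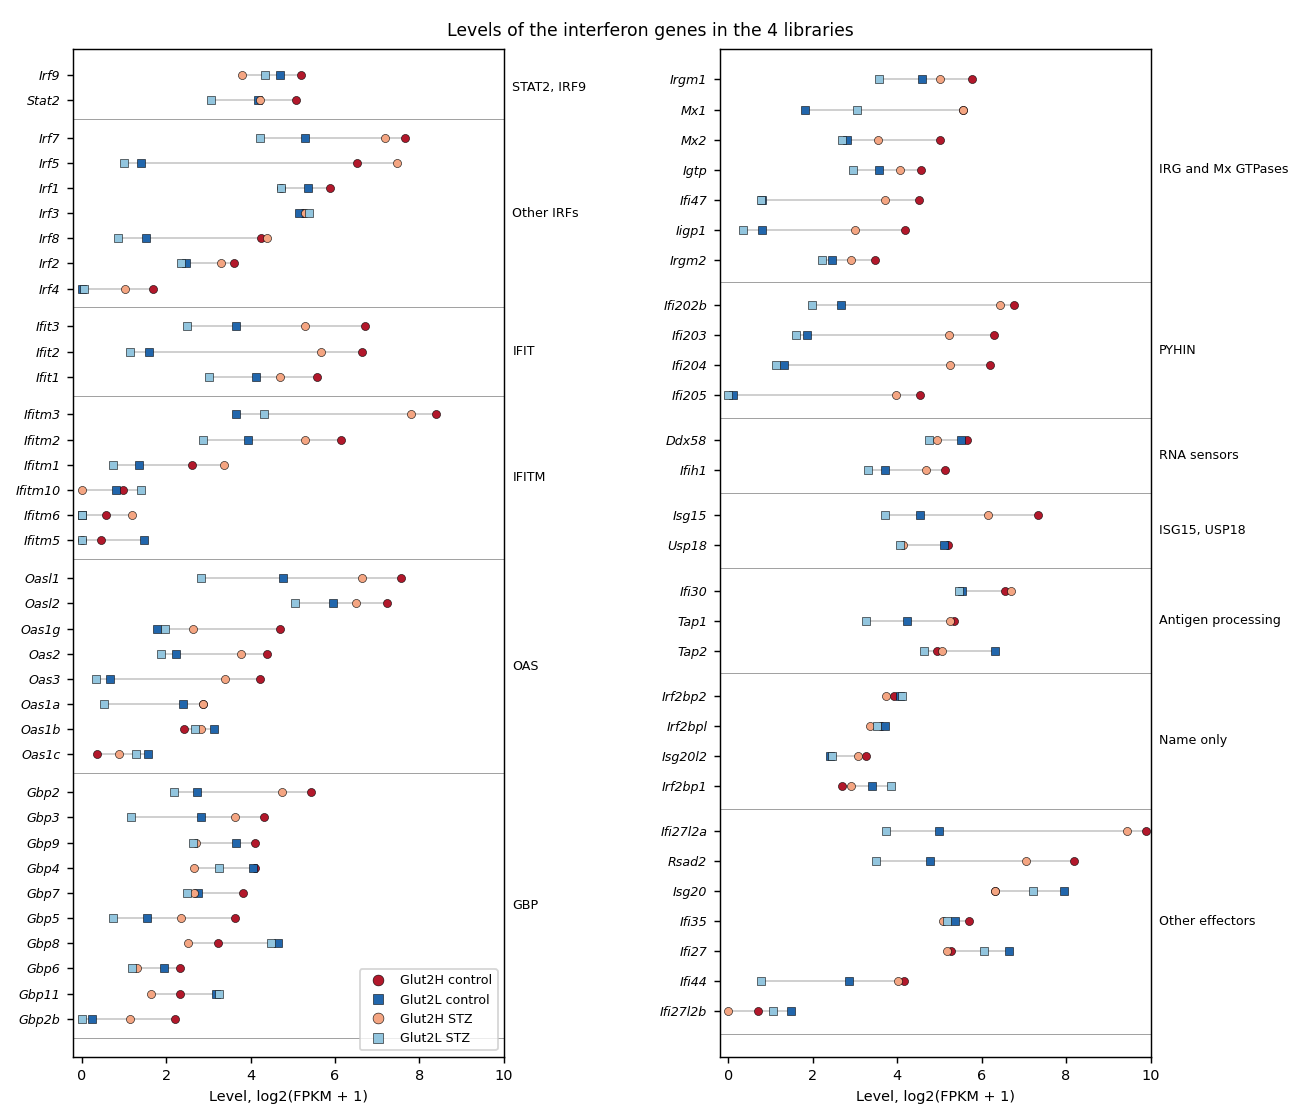
Each row is one of the interferon genes reported here and each point its level in 1 library, as log2 of FPKM plus 1, with circles for Glut2H, squares for Glut2L, dark colours for control and light colours for STZ, grouped by family. In most rows both circles lie to the right of both squares, and Isg20, Ifi27 and Gbp8 are among the exceptions.

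The first comparison sets the libraries of the Glut2-low and Glut2-high labels against each other. Differences are log2 of the ratio of FPKM plus 1, and a gene is counted when it differs at least 2-fold on that scale. In control mice 40 of 67 interferon genes (59.7%) were at least 2-fold lower in the Glut2L-labelled library, where 16.9% of all 17732 genes measured were lower, and 6 were at least 2-fold higher, where 18.1% of all genes were. After STZ 37 of 67 (55.2%) were lower and 5 higher, beside 15.9% and 20.5% of 17733 genes. The median difference of the interferon genes was -1.15 in control mice and -1.20 after STZ, against 0.10 and 0.16 over all genes. At least 2-fold lower in both pairs were 34 of 67, compared with 8.39% of all genes. A gene that reached 1 FPKM in the libraries of 1 gate only entered through its higher side, for interferon genes and all genes alike. In bulk libraries fewer cells of a type and less RNA per cell cannot be told apart. Macrophage and myeloid markers moved with these genes: 15 of 16 were at least 2-fold lower in control mice and 16 of 16 after STZ, with medians of -4.24 and -3.94. Endothelial and stromal markers were lower too, for 9 of 11 and 12 of 12 in each pair. Acinar markers were lower for 0 of 13 in control mice and 13 of 13 after STZ (median -3.89), and B cell markers for 5 of 6 and 2 of 6. Beta cell markers moved the opposite way, at least 2-fold higher in the Glut2L-labelled library for 16 of 16 in control mice and 14 of 16 after STZ, with medians of 1.72 and 1.59. The part of these cell types in the result was not tested.

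The split depends on the scale. Rescaling FPKM to equal sums moved the median of all genes to 0.76 in control mice and 1.06 after STZ, and the interferon genes then had 26 lower with 11 higher, and 24 lower with 17 higher. Signs turned under it for Irf1, Usp18, Ddx58, Gbp6 and Gbp9 in both pairs, for Irf3, Irf9, Ifi35, Ifitm10, Oas1a and Gbp4 in control mice, and for Irf2, Mx2, Irgm2, Tap2, Oas1b, Oas1g, Gbp7 and Isg20l2 after STZ. The share of higher calls went from 13.04% to 29.7% in control mice and from 11.9% to 41.5% after STZ, while for all genes it went from 51.6% to 78.6% and from 56.4% to 85.6%. Relative to the median of all genes, the interferon median was -1.25 and -1.36 as deposited and -1.15 and -1.27 after that rescaling. Of the deposited intervals around each FPKM, whose level is not stated, 19 of the 40 lower calls and 16 of the 37 had intervals that did not overlap. Over all genes this held for 681 of 3002 lower calls and for 658 of 2814.

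**Figure D3:**
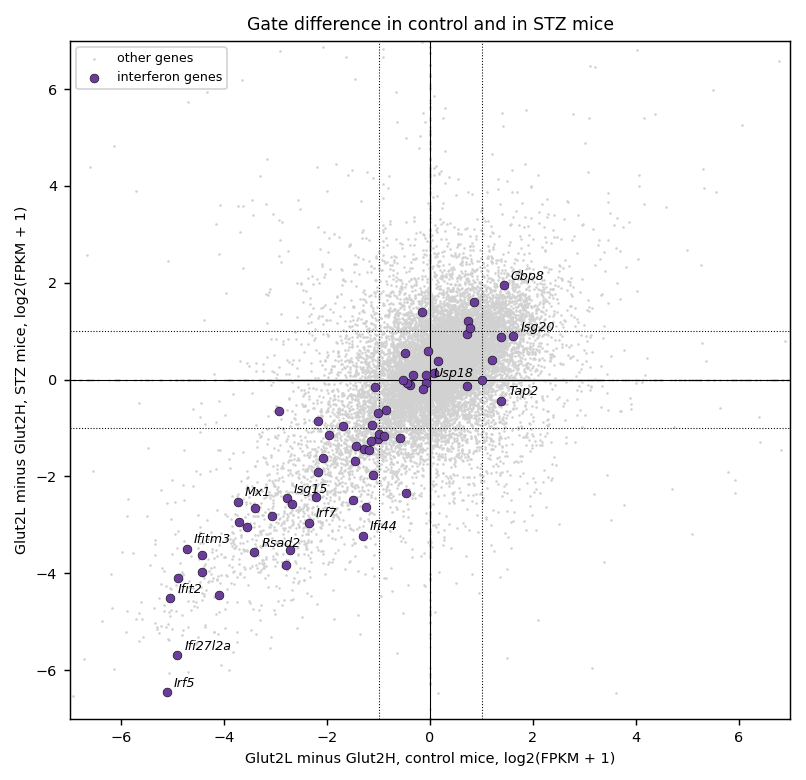
Each point is a gene, with its Glut2L minus Glut2H difference in control mice on the horizontal axis and in STZ mice on the vertical axis, both as log2 of FPKM plus 1. Purple points are the interferon genes, grey points other genes (217 of 17665 lie outside the axes), and dotted lines mark 2-fold. The interferon genes extend to the lower left, down to -5.11 and -6.46 for Irf5, and Gbp8 alone among them lies past 2-fold at the upper right.

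Among the factors that carry the signal, Stat2 stood lower in the Glut2L-labelled libraries. Its level was 32.8, 17.2, 17.7 and 7.36 FPKM, and its difference in control mice, -0.89, fell short of 2-fold. Irf9, its DNA-binding partner in ISGF3, was at 35.5, 24.9, 12.9 and 19.3 and did not differ 2-fold between gates in either pair. Irf9 overlaps Rnf31 on the same strand, so part of its reads could have been assigned to either gene.

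Of the 8 other interferon regulatory factors, 5 were at least 2-fold lower in control mice and 3 after STZ. Irf5, a factor of macrophages and other myeloid cells, was at 90.2, 1.64, 176 and 1.01 FPKM (ENSMUSG00000029771, chromosome 6, 29526625 to 29541871), the widest gate difference of any interferon gene in both pairs. Irf8, which directs myeloid and dendritic cell development, was at 18.1, 1.89, 19.97 and 0.825. Irf8 overlaps Gm20388 on the same strand, and its deposited intervals in the Glut2H libraries ran from 0 to 82.0 and from 0 to 100. Irf4, a factor of lymphocytes and some dendritic cells, reached 2.23 and 1.03 in the Glut2H libraries and was at 0 and 0.0395 in the others. It passed the filter of 1 FPKM through the Glut2H libraries only, which favours its lower call in control mice. Irf7, the amplifier of type I interferon output, was at 201, 38.4, 144 and 17.7 (ENSMUSG00000025498, chromosome 7, 141262706 to 141266481), so it was lower in the Glut2L-labelled libraries yet still among their more abundant members. Irf2, an antagonist of IRF1 at many promoters, was at 11.2, 4.55, 8.78 and 4.10. Irf1 was at 57.6, 40.0, 25.5 and 25.4 and Irf3, the factor that sensors activate by phosphorylation, at 36.6, 34.6, 38.1 and 40.9, neither 2-fold apart between gates.

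All 3 IFIT genes, whose proteins bind viral RNA, were at least 2-fold lower in the Glut2L-labelled libraries in both pairs (medians -3.06 and -2.81). Ifit1 was at 46.8, 16.5, 24.9 and 7.05 FPKM. Ifit3 (ENSMUSG00000074896, chromosome 19, 34583531 to 34588731) was at 105, 11.6, 38.4 and 4.63. Ifit2 showed the widest gap of the family, with differences of -5.05 and -4.52. Some IFITM proteins block viral entry at membranes, and 3 of the 6 IFITM genes in control mice and 4 of 6 after STZ were at least 2-fold lower. Ifitm3 was at 334, 11.7, 222 and 18.8, Ifitm2 at 69.9, 14.3, 38.3 and 6.33 and Ifitm1 at 5.10, 1.58, 9.30 and 0.660. Ifitm5 and Ifitm10, which passed 2-fold higher in 1 pair each, and Ifitm6 stayed below 2 FPKM in every library. Each reached 1 FPKM in 1 library only, the higher side of its gate call, so the filter itself favours these calls.

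Of the 8 measured OAS genes, whose enzymatic members make antiviral oligoadenylates, 5 were at least 2-fold lower in each pair. Oasl1 was at 189, 26.4, 99.3 and 6.10 FPKM and Oasl2 at 149, 60.8, 89.2 and 32.4, both of them OAS-like genes. Oas2, at 20.1, 3.67, 12.7 and 2.66, and Oas3, at 17.7, 0.597, 9.47 and 0.274, had the same order of libraries. Oas1g (25.1, 2.43, 5.18 and 2.93) and Oas1a (6.32, 4.32, 6.38 and 0.454) are neighbouring copies of 1 gene family on chromosome 5 whose reads could be shared between them, and each passed 2-fold in only 1 pair. Oas1b and Oas1c stayed between 0.289 and 7.81, with Oas1c 2-fold higher in the Glut2L-labelled library in control mice, at 1.97 against 0.289. Oas1c reached 1 FPKM in the Glut2L-labelled libraries only, so the filter favours that call.

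PYHIN proteins, which sense DNA or act in the nucleus, gave the lowest family medians, -4.43 and -4.04, with 4 of 4 genes lower in each pair. Ifi202b was at 107, 5.34, 85.6 and 2.98 FPKM and Ifi204 at 72.8, 1.48, 36.8 and 1.20. Ifi203, at 77.2, 2.64, 36.6 and 2.06, and Ifi205, at 22.4, 0.0890, 14.8 and 0, showed the same gap. These genes are close copies in 1 cluster on chromosome 1, so reads could have been split among them. The RNA sensors differed from each other: Ifih1, which encodes MDA5, was at 34.2, 12.02, 24.5 and 8.87, whereas Ddx58, which encodes RIG-I, was at 49.4, 44.7, 29.7 and 26.0 and differed by -0.14 and -0.19, a sign that turned under rescaling to equal sums.

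The GTPases of the IRG and Mx families, which disrupt the vacuoles of microbes or trap viral particles, were at least 2-fold lower for 7 of 7 genes in control mice and 5 of 7 after STZ. Irgm1 was at 54.0, 23.0, 31.2 and 10.8 FPKM, Igtp at 22.8, 10.9, 15.7 and 6.71 and Irgm2 at 10.1, 4.52, 6.52 and 3.66. Ifi47, at 22.0, 0.747, 12.04 and 0.699, and Iigp1, at 17.3, 0.728, 7.04 and 0.272, were below 1 FPKM in both Glut2L-labelled libraries. Ifi47 overlaps Olfr56 on the same strand, and its deposited intervals reached down to 0 in both Glut2H libraries. Mx1 was at 45.9, 2.52, 46.1 and 7.22 and Mx2 at 31.1, 6.06, 10.7 and 5.45. The annotation (GENCODE M21) classes Mx2, like Oas1b and Gbp11, as a polymorphic pseudogene, a gene that codes for protein in some strains only. Whether any of these transcripts gives a working protein in these mice was not tested. Igtp and Irgm2 overlap on the same strand, which leaves their division of reads uncertain.

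Guanylate-binding proteins, a second family of GTPases, lie in clusters on chromosomes 3 and 5. On chromosome 3, Gbp2 was at 41.9, 5.68, 26.0 and 3.57 FPKM and Gbp3 at 19.0, 6.12, 11.5 and 1.23, both lower in the 2 pairs. Gbp7, at 13.1, 5.70, 5.28 and 4.62, was lower in control mice. The rows that the deposited table calls Gbp5 and Gbp2b were lower in both pairs, but GENCODE M21 gives the ID of the Gbp5 row the name Gbp2b and that of the Gbp6 row the name Gm43302, so which gene these 3 rows measure is uncertain. The Gbp2b row reached 1 FPKM in the Glut2H libraries only, so the filter favours its lower calls. On chromosome 5, Gbp8 was at 8.38, 24.3, 4.76 and 21.2, the gene that was at least 2-fold higher in the Glut2L-labelled library in both pairs. Its neighbours Gbp4, at 16.1, 15.7, 5.27 and 8.50, and Gbp9, at 16.2, 11.6, 5.58 and 5.23, did not differ 2-fold between gates. Gbp4, Gbp8 and Gbp9 overlap within 1 locus on 1 strand, so the Gbp8 value rests on how reads of that locus were divided. Gbp11, on the same chromosome, was at 4.01, 8.10, 2.13 and 8.56 and passed 2-fold higher after STZ. The family had 5 of 10 genes lower in control mice with a median of -0.76, and 4 of 10 in the STZ pair (-0.13, which turned to 0.67 under rescaling to equal sums).

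Antigen processing genes and a few abundant effectors did not all stand lower in the Glut2L-labelled libraries. Isg20 was at 79.3, 245, 78.9 and 148 FPKM and Ifi27 at 37.8, 99.3, 35.0 and 65.4, with differences of 1.62 and 1.37 in control mice and of 0.90 and 0.88 after STZ. Tap2 (ENSMUSG00000024339, chromosome 17, 34203527 to 34216321), which with TAP1 forms the peptide transporter of MHC class I loading, was at 29.8, 79.0, 32.5 and 23.7, highest in the control Glut2L-labelled library. Its partner Tap1 was at 39.4, 17.6, 37.0 and 8.66, lower there in both pairs, as was Ifi30, a thiol reductase of antigen processing, at 92.5, 45.7, 102 and 43.0. Usp18, the protease that removes ISG15 from proteins and restrains the type I receptor, was level between gates at 35.6, 33.7, 16.5 and 15.8, while Isg15 itself, a ubiquitin-like modifier, was at 160.4, 22.4, 70.1 and 12.1. Ifi35, which binds the transcription factor BATF, was at 51.0, 40.4, 33.0 and 35.2. Neither Usp18 nor Ifi35 differed 2-fold.

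Among the remaining effectors, Ifi27l2a was at 946, 30.6, 691 and 12.4 FPKM. Rsad2, which encodes the antiviral enzyme viperin (ENSMUSG00000020641, chromosome 12, 26442746 to 26456452), was at 292, 26.3, 131 and 10.2, and Ifi44 at 16.9, 6.24, 15.1 and 0.722. All 3 were lower in the Glut2L-labelled libraries in both pairs. The 14 genes that differed less than 2-fold in both pairs were the 4 that share only the name together with Oas1b, Usp18, Ddx58, Gbp4, Gbp6, Gbp9, Irf1, Irf3, Irf9 and Ifi35.

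The second comparison sets the STZ library against the control library within each gate. In these bulk libraries a change within cells and a change in the mix of cells cannot be told apart. Interferon genes stood lower after STZ in both gates. In the Glut2H libraries STZ went with 16 of 67 (23.9%) lower by 2-fold or more and 0 higher, beside 12.1% lower and 8.44% higher over all genes. In the Glut2L-labelled libraries 16 of 67 were lower and 1 higher, beside 9.73% and 8.94%. The medians were -0.67 and -0.44, against -0.03 and 0.00 over all genes, and each kept its sign under the 3 other scalings. Below control in both gates, by any amount, were 47 of 67 interferon genes (70.1%) and 25.1% of all genes. The gates use separate libraries from the same treatment groups of mice, and the difference between gates was not tested.

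Past 2-fold on the lower side in both gates were 4 genes of 67 beside 1.57% of all genes. They were Ifit3, Rsad2, Usp18 and Gbp9, whose values are given above: Rsad2 fell by 1.14 on the log2 scale in Glut2H and by 1.28 in Glut2L, and Usp18 by 1.06 and 1.05. None of the lower calls in Glut2H, and 1 in Glut2L (Oas1a), had deposited intervals that did not overlap. All other lower calls had intervals that overlapped. Over all genes 102 of 17733 (0.575%) and 64 of 17732 (0.361%) were lower by that rule, so the counts of 0 and 1 do not set the interferon genes apart.

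**Figure D4:**
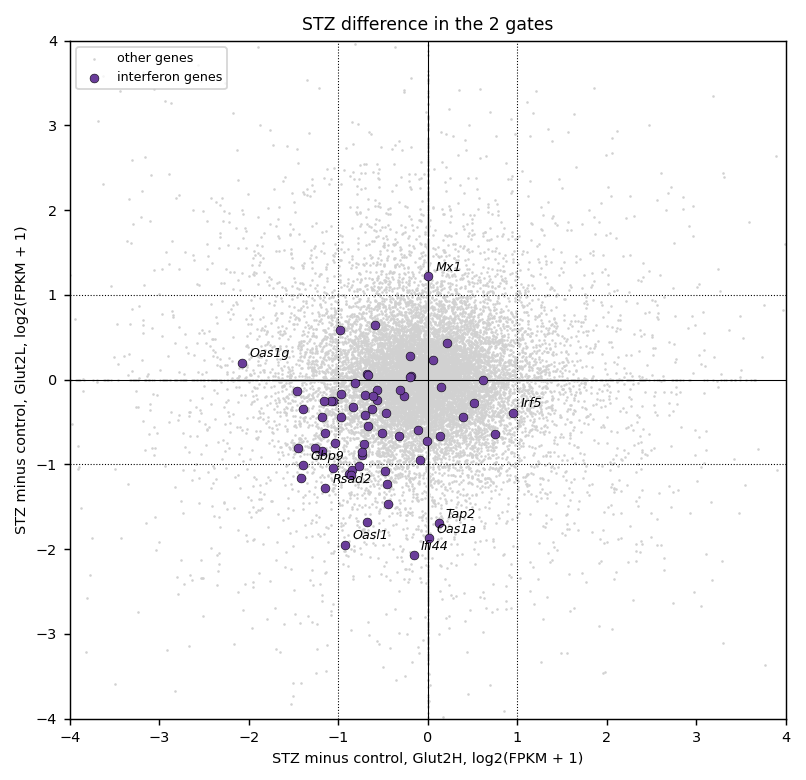
Each point is a gene, with its STZ minus control difference in Glut2H on the horizontal axis and in Glut2L on the vertical axis, both as log2 of FPKM plus 1. Purple points are the interferon genes, grey points other genes (513 of 17665 lie outside the axes), and dotted lines mark 2-fold. Most interferon genes lie at the lower left, and Mx1 lies above 2-fold on the vertical axis.

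In Glut2H the genes past 2-fold included transcription factors. Irf1 and Irf9 fell by 1.15 and 1.39 on the log2 scale, while Stat2, at -0.85, and Irf7, at -0.48, did not reach 2-fold. Guanylate-binding proteins made up 6 of the 16: Gbp4 (-1.45), Gbp9 (-1.39), Gbp5 (-1.26), Gbp7 (-1.16), Gbp2b (-1.08) and Gbp6 (-1.03), from both chromosome clusters. The rest were Isg15, Usp18, Ifit3, Rsad2, Oas1g, Ifi203, Mx2 and Iigp1. Irf5 had the highest value of any interferon gene, 0.96, and Irf8, Irf3, Tap1, Tap2 and Ifi30 lay between -0.09 and 0.14, of which all but Tap1 turned negative under rescaling to equal sums.

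In Glut2L 4 of the 16 genes lower after STZ were shared with the 16 of Glut2H. Irf7 fell by 1.08, Stat2 by 1.12 and Ifi27l2a by 1.24 on the log2 scale, and Irf1 and Irf9 stood at -0.63 and -0.35. The widest differences were in Ifi44 (-2.07), Oasl1 (-1.95), Oas1a (-1.87), Tap2 (-1.69) and Gbp3 (-1.68). Ifit1, Ifitm2 and Irgm1 were also past 2-fold. Ifitm5, at 1.76 FPKM in the control library and 0 in the STZ library, was counted as well. It reached 1 FPKM in that control library alone, so the filter kept it only through the side where it was high. Mx1 was the gene at least 2-fold higher, at 2.52 and 7.22 FPKM. Whether a gene past 2-fold in 1 gate differs between gates was not tested.

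The cell type markers did not all move alike after STZ. Macrophage and myeloid markers had medians of 0.08 after STZ in Glut2H, which turned to -0.14 under rescaling to equal sums, and 0.22 in Glut2L, with 1 of 16 at least 2-fold lower and 0 higher in each gate. Beta cell markers had 0 of 16 past 2-fold in either direction in both gates. B cell markers were at least 2-fold lower after STZ in Glut2H for 6 of 6 genes: their summed FPKM was 68.4, 8.76, 9.34 and 5.68, and Ighm was at 39.5, 0.249, 3.23 and 0. Endothelial markers had 3 of 11 lower in each gate (medians -0.67 and -0.67). Acinar markers were lower for 13 of 13 in Glut2L (summed FPKM 4388, 3433, 4599 and 377) and 0 of 13 in Glut2H. T and NK cell markers summed to 16.04, 5.01, 7.62 and 3.10 FPKM, with 8 of 11 at 0 in the STZ Glut2L-labelled library. Dendritic cell markers summed to 110.3, 35.4, 88.2 and 16.7 FPKM, with 0 of 8 lower by 2-fold in Glut2H and 3 of 8 in Glut2L. Bst2, which interferon also induces and which is counted among the induced genes as well, held most of that sum in the Glut2H libraries and is 1 of the 3, and without it the sums were 30.7, 21.2, 27.3 and 11.8. The part of macrophage and myeloid, B cell, T and NK cell, dendritic cell, endothelial or acinar RNA in the STZ result was not tested.

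**Figure D5:**
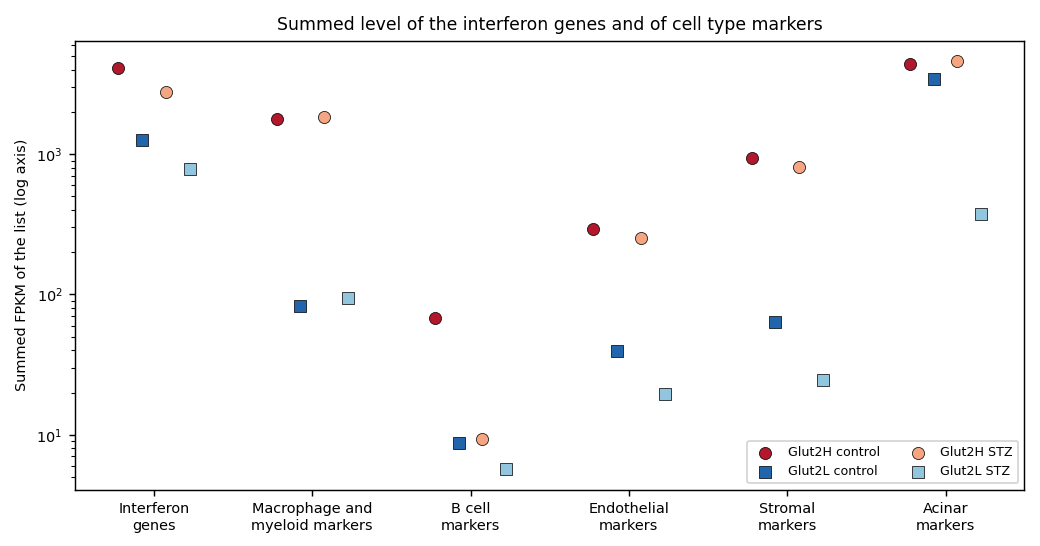
Summed FPKM on a log axis for the interferon genes and for 5 lists of cell type markers, 1 point per library, with circles for Glut2H, squares for Glut2L, dark colours for control and light colours for STZ. The interferon sum is lower after STZ in both gates, 4128 and 2788 in Glut2H and 1252 and 789 in Glut2L. The macrophage and myeloid sums are 1791 and 1842, and 82.8 and 94.4. The part of any cell type in the interferon sum was not tested.

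Genes with a response element core in their window were found on both sides of the STZ threshold. The core was present in 14 of the 20 matched genes at least 2-fold lower in either gate (70.0%) and in 10 of the other 29 (34.5%), which also include the genes that share only the name. For the gates, it was present in 16 of 28 genes lower in both pairs (57.1%) and in 8 of the other 21 (38.1%). The letters of the gamma-activated site ran the other way, in 4 of 20 and 11 of 29 for STZ (20% and 37.9%). These shares describe the matched genes and were not tested. Irf1, whose window holds TTCNNNGAA and no response element core, was among the genes lower in Glut2H, and Irf7, Oasl1 and Irf9 were lower in 1 gate with neither set of letters in their windows.

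The rest of the pathway was taken from lists of genes outside the symbol rule. The ligands were low: of 13 ligand genes, 4 reached 1 FPKM in any library. Ifnb1, which encodes interferon beta, was at 4.07, 0, 0.267 and 0 FPKM and Ifnl3 at 0, 2.43, 0 and 0, while Ifng was listed at 0 throughout. Receptors and kinases were at least 2-fold lower in the Glut2L-labelled libraries for 4 of 8 and 5 of 8 genes, beside 16.9% and 15.9% of all genes. After STZ 0 of 8 differed 2-fold in either gate. Over all genes 12.1% and 9.73% were lower and 8.44% and 8.94% higher, so with 8 genes the 0 does not set this list apart. The type I receptor genes Ifnar1 and Ifnar2 were at 56.7, 19.0, 33.8 and 12.1 and at 45.6, 6.98, 41.9 and 10.1, and the kinase gene Jak1 at 43.0, 26.0, 30.7 and 31.0.

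Nucleic acid sensors and their adaptors were lower in the Glut2L-labelled libraries for 12 of 16 genes in each pair, beside 16.9% and 15.9% of all genes. After STZ 2 of 16 in Glut2H and 1 of 16 in Glut2L were lower, shares near the 12.1% and 9.73% of all genes. Tlr7, an endosomal RNA receptor, was at 28.0, 0, 19.4 and 0.267 FPKM and Zbp1, a sensor of left-handed nucleic acid, at 90.3, 6.46, 58.1 and 4.12. Dhx58, which encodes the RIG-I-like protein LGP2, was at 35.4, 15.6, 12.97 and 8.00, with STZ differences of -1.38 in Glut2H and -0.88 in Glut2L. Of 28 further interferon-induced genes measured, 17 and 21 were lower in the Glut2L-labelled libraries, beside the same 16.9% and 15.9%. After STZ 2 in Glut2H and 5 in Glut2L were lower, with medians of -0.52 and -0.45. The 2 of 28 lie below the 12.1% of all genes in Glut2H, and the 5 of 28 stand beside 9.73% in Glut2L. Among the 28 genes Bst2, the tetherin gene, was at 79.6, 14.2, 60.9 and 4.97, Xaf1 at 115, 83.2, 102 and 32.8 and Parp14 at 50.6, 39.2, 35.5 and 11.8. Lgals3bp, an abundant secreted glycoprotein gene, stayed within 2-fold in all 4 comparisons at 500.0, 542, 351 and 396.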

How the data were processed

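Sorted-cell RNA from 4 libraries was analysed. Per the labels' protocols, total RNA was extracted on Norgen columns and made into stranded, ribosomal RNA-depleted TruSeq libraries. Per the submitters' processing notes, TopHat2, SAMtools and Cuffdiff were used on GRCm38 (mm10). Tool versions, annotation and strand setting: not given in the sources used here. Deposited values are FPKM with interval bounds and a status, per the file headers. Depth is unknown, so no counting interval is given. The 4 tables of single samples held the same FPKM as the whole table (0 of 156680 values differed).

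Kept were genes that reached 1 FPKM somewhere and whose status was OK on both sides of a comparison, and log2 ratios of FPKM plus 1 were computed with pandas 2.3.3 and numpy 2.4.6. Single libraries allow no test, so differences of at least 2-fold were counted. Counting was checked on simulated data. GENCODE M21 (GRCm38) matched 64 of 68 rows by both ID and symbol and gave the coordinates and overlaps. The rest (Gbp2b, Gbp5, Gbp6 and the second Gbp11 row) carry the symbol of the deposited table, which for Gbp5 and Gbp6 differs from the annotation's. Promoters are from RefSeq. Protein sequences were not used here.

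Levels or differences were given for most STAT and IRF genes and most members of at least 20 FPKM. The same holds for most members differing 2-fold between STZ and control with at least 5 FPKM, and most members 2-fold higher in Glut2L. Some other members and list genes were named after their values were seen. Some of the genes that enter the counts are not reported here. The genes and lists were chosen with earlier results of these data known.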

Additional observations from a re-analysis of the deposited data

Results flagged for a closer look

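Members were picked out when the same contrast had opposite signs in its 2 arms and passed 2-fold in at least 1 of them. The difference between arms was not tested, since each group holds 1 library.

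Tap2 was picked out in both contrasts. Its Glut2L minus Glut2H difference was 1.38 in control mice and -0.44 after STZ, and its STZ minus control difference was 0.12 in Glut2H and -1.69 in Glut2L. Ifitm10 had gate differences of -0.16 in control mice and 1.40 after STZ, at levels of 1.64 FPKM or less. Oas1a had STZ differences of 0.012 in Glut2H and -1.87 in Glut2L, and its neighbour Oas1g had -2.08 and 0.20. Under rescaling to equal sums the smaller value turned sign for Tap2 in both contrasts (0.66 and -0.09), for Ifitm10 (0.24) and for Oas1a (-0.17), so that among these only Oas1g kept opposite signs.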

How the results depend on the processing

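Of the alternatives, none turned the sign of the 4 medians over all interferon genes, while medians of smaller lists did turn. Under rescaling to equal sums these included the RNA sensors in both gate pairs (0.0085 and 0.30), the guanylate-binding proteins in the STZ gate pair (0.67), the other effectors in the control gate pair (0.48), antigen processing after STZ in Glut2H (-0.09) and the inhibitors in both gate pairs (0.44 and 0.80), and, once every comparison was centred on the all-gene median, the other effectors in the STZ gate pair (-0.07). Of the marker lists, equal sums turned acinar markers in the control gate pair (0.30) and after STZ in Glut2H (-0.21). Dendritic cell markers turned in the STZ gate pair (0.015) and after STZ in Glut2L (0.0062). Beta cell markers turned after STZ in both gates (-0.15 and 0.058), and macrophage and myeloid markers after STZ in Glut2H (-0.14). For the whole set, the counts that moved by over 1.5 times and the medians that shifted by over 1.5-fold in expression follow; the cause was not tested beyond what each setting does by construction. Under rescaling to equal sums the control gate pair had 11 higher and 26 lower (6 and 40 as reported) with a median of -0.39, and the STZ pair 17 higher and 24 lower (5 and 37) with a median of -0.22. With non-overlapping intervals the gate pairs had 0 higher and 19 lower, and 0 and 16, and the STZ comparisons 0 lower in Glut2H and 0 higher and 1 lower in Glut2L. With a pseudocount of 5 the STZ gate pair had 1 higher, and after STZ 9 were lower in Glut2H and 4 lower with 0 higher in Glut2L, where the median was -0.24 (-0.44 as reported). With a pseudocount of 0.1 there were 2 higher after STZ in each gate. With a filter of 5 FPKM the STZ gate pair had 3 higher. The other alternatives (no filter, the median of all genes set to 0, equal sums computed after removal of the 20 highest rows, of mitochondrial genes and of loci shorter than 300 bp, and leaving out the genes that share only the name) kept each of the 12 results within 1.5-fold. Rescaling to equal sums turned the sign of 11 genes in the control gate pair, 13 in the STZ gate pair, 6 in Glut2H after STZ and 0 in Glut2L. No paired analysis was possible because each group holds 1 library, and leaving out a replicate was not possible for the same reason. Read depth is not known, so values near 1 FPKM carry an error that cannot be stated.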

Other observations

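Inhibitors of interferon signalling, 9 of 10 measured, were at least 2-fold lower after STZ for 4 genes in Glut2H and 3 in Glut2L, where 12.1% and 9.73% of all genes were. Ptpn6, which encodes the phosphatase SHP-1, was at 476, 180.2, 58.6 and 46.9 FPKM, so its STZ difference of -3.00 in Glut2H exceeded that of any interferon gene. Socs3, a feedback inhibitor of cytokine receptors, was at 47.3, 208, 8.23 and 100.4, higher in the Glut2L-labelled libraries and at least 2-fold lower after STZ in both gates. Socs1 was at 15.9, 1.31, 5.30 and 2.12, and Trex1, a DNA exonuclease that limits sensing of self DNA, at 89.1, 13.3, 93.4 and 4.23.

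Psmb9, an immunoproteasome subunit gene that overlaps Tap1 on the opposite strand, was at 57.5, 12.8, 15.5 and 11.96 FPKM. Its STZ difference was -1.82 in Glut2H and -0.09 in Glut2L, where Tap1 had -0.09 and -0.95. Whether the counting used strand is not given, so the division of reads between them is uncertain. These genes were chosen after their values were seen.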
